A study of Danio rerio with 16 samples.

Results

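The id genes id1, id2a, id2b and id3 were followed across the cells of zebrafish embryos sorted for the neutrophil reporter Tg(mpx:Dendra2), in which the mpx promoter drives the photoconvertible protein Dendra2. The 4 genes were taken by symbol from the 25433 features of the matrices, with the identifiers ENSDARG00000040764 for id1, ENSDARG00000055283 for id2a, ENSDARG00000029544 for id2b and ENSDARG00000054823 for id3. They had been selected on their levels in these same cells, so their levels between cell classes and libraries are a description and carry no test. Dendra2+ cells in the head were photoconverted at 34 and 44 hours post fertilization (hpf), so that red cells were enriched in neutrophils derived from the rostral blood island (RBI) and green cells in neutrophils derived from the caudal hematopoietic tissue (CHT). Embryos were either uninjured (normal) or taken 3 h after the caudal fin was transected at 54 hpf (cut). Those of all 4 conditions were taken at 57 hpf and carry the same transgene and the same photoconversion. The line is known to label macrophages at a low level, so that red and green are enrichments and not pure lineages. The 4 entries registered for each condition share 1 matrix with no map from cells to entries. Each condition was therefore read as 1 library, and differences between conditions have no replicate check.

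Id proteins (inhibitors of differentiation, or of DNA binding) have a helix-loop-helix but no basic region. In vertebrates they pair with E proteins, the common partners of tissue-specific basic helix-loop-helix (bHLH) factors, and these pairs cannot bind DNA, so that differentiation driven by bHLH factors is held back. Id genes are well-known direct targets of bone morphogenetic protein (BMP) signaling through the SMAD1, SMAD5 and SMAD9 proteins. They are high in many progenitors and in endothelium, and in mouse blood Id2 and Id3 are best known from lymphoid cells.

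Levels are given as unique molecular identifiers (UMIs, counts of captured transcript molecules) of a gene per 1000000 UMIs of all genes (CPM), from the sum of all cells of 1 class and library. Intervals are exact 95% Poisson intervals, or exact conditional intervals for ratios, and all of them cover counting error only. Cells were kept with at least 1000 UMIs, 300 to 7500 genes and at most 10% mitochondrial UMIs, which left 7599 cells, between 1196 and 2925 in a library. Cells with lyz, the lysozyme gene of zebrafish neutrophils, at 1% or more of their UMIs were called neutrophils, and those with at least 3 UMIs of 6 cell-cycle genes cycling neutrophils. Cells under the lyz limit with at least 3 UMIs of 6 macrophage genes were called macrophages. This gave 3567 non-cycling and 475 cycling neutrophils, 1825 macrophages and 1732 other cells. The smallest groups were the 44 macrophages of RBI-derived normal and the 85 cycling neutrophils of RBI-derived cut. Few cells lay near the limit, with 108 cells at a lyz share of 0.5 to 1% and 104 at 1 to 2%. All 8 neutrophil markers were detected in the non-cycling neutrophils of each library and all 8 macrophage markers in its macrophages. The former include lyz and the latter the 6 macrophage genes, which set the classes. All 8 neutrophil markers were also detected in the macrophages and other cells of each library, so that detection does not set the classes apart.

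Where 4 values stand in a row below, they are those of the RBI-derived library of normal embryos, then that of cut embryos, and the CHT-derived pair in the same order. Depth and mixed cells move with the libraries. The median depth of non-cycling neutrophils was 4322, 3460, 8100 and 3697.5 UMIs, and 0, 4, 5 and 190 of these cells also had at least 3 UMIs of the macrophage genes, the last being 18.3% of its class. RNA outside cells, read from droplets with 10 to 100 UMIs, held id3 at 556, 436, 520 and 366 CPM and id1 at 34.5, 111, 155 and 339 CPM. Between 1 and 9 barcodes were shared by a pair of libraries, and 25 barcodes were found in more than 1.

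The 4 genes had different distributions. The gene id3 was found in neutrophils and other cells and was lower in macrophages, id2a was found in each class, and id1 and id2b were rare in neutrophils and high in the other cells. In RBI-derived non-cycling neutrophils id3 stood at 326 CPM (308 to 345) in normal and 380 CPM (361 to 400) in cut embryos. In CHT-derived ones it stood at 631 CPM (607 to 656) and 538 CPM (515 to 561). Both CHT-derived libraries lay above both RBI-derived ones, with no overlap of the intervals. Cycling neutrophils had id3 at 303, 377, 707 and 628 CPM, with both CHT-derived libraries again the higher ones. Set against the RNA in droplets outside cells, given above, both kinds of RBI-derived neutrophils lay below the droplet level of their library and both kinds of CHT-derived ones above it. Cycling over non-cycling neutrophils gave a log2 ratio of -0.11 (-0.30 to 0.09) and -0.01 (-0.23 to 0.20) in the RBI-derived libraries, and of 0.16 (0.07 to 0.26) and 0.22 (0.10 to 0.34) in the CHT-derived ones. Scaled by trimmed means (TMM), the median of these 4 ratios went from 0.08 to -0.09.

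In macrophages id3 was at 99.3 CPM (67.5 to 141), 80.5 (63.7 to 100), 92.0 (83.9 to 101) and 127 (117 to 136). Each macrophage level was below each neutrophil level, and below the level in droplets outside cells. A gene was called when it had at least 50 UMIs over both sums and differed at least 2-fold in CPM, and on this rule id3 was lower in macrophages than in non-cycling neutrophils in all 4 libraries. The log2 ratios were -1.72 (-2.28 to -1.20), -2.24 (-2.59 to -1.91), -2.78 (-2.92 to -2.64) and -2.09 (-2.21 to -1.96). The same call fell on 20.2%, 14.7%, 9.34% and 9.68% of all genes tested.

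After each cell had been thinned to 1000 UMIs, 23.3%, 23.5%, 33.8% and 32.9% of non-cycling neutrophils had an id3 UMI. The shares of thinned macrophages were 11.4%, 9.13%, 9.64% and 11.5%. Unthinned, the neutrophil shares were 46.2%, 49.6%, 70.5% and 59.6% and the macrophage shares 29.5%, 22.6%, 42.7% and 40.6%. As a background, 18.2% of 22 erythroid-like cells (median 8058 UMIs) and 7.20% of 236 cells of a neuron-like cluster (median 1840 UMIs) had one, unthinned.

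The gene id2a was at 74.9 CPM (66.4 to 84.3) and 82.4 CPM (73.7 to 91.8) in RBI-derived non-cycling neutrophils of normal and cut embryos. In CHT-derived ones it was at 71.2 CPM (63.2 to 79.9) and 101 CPM (91.6 to 112). The first 3 libraries overlapped, and CHT-derived cut met RBI-derived cut only at the edge of its interval. Macrophages had id2a at 83.3, 88.6 and 85.0 CPM in the first 3 libraries and at 166 CPM (155 to 177) in CHT-derived cut. The macrophage over neutrophil ratio was not called in any library, with log2 values of 0.15, 0.10, 0.26 and 0.71. TMM scaling moved these ratios by -0.14 to -0.76 and turned the median of the 4 from 0.20 to -0.33.

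Cycling neutrophils had id2a at 53.3, 61.5, 58.6 and 58.2 CPM, below the non-cycling cells of each library. The log2 ratios were -0.49 (-0.96 to -0.04), -0.42 (-0.99 to 0.10), -0.28 (-0.60 to 0.04) and -0.80 (-1.19 to -0.43), none of them called. In this comparison 6.81%, 7.27%, 6.87% and 9.46% of genes passed 2-fold in either direction. With each cell thinned to 1000 UMIs the median of the 4 ratios was 0.01 in place of -0.46, and in UMIs per cell it was 0.41.

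The gene id1 was rare in neutrophils. RBI-derived non-cycling neutrophils held 7 UMIs in normal (1.88 CPM, 0.756 to 3.87) and 28 UMIs in cut embryos (7.06 CPM, 4.69 to 10.2). CHT-derived ones held 30 UMIs (7.42 CPM, 5.00 to 10.6) and 190 UMIs (48.0 CPM, 41.4 to 55.3). CHT-derived cut thus stood above the other 3 libraries, and each level was below that in droplets outside cells. Macrophages had id1 at 25.6, 38.7, 45.8 and 38.3 CPM, with overlapping intervals, and each of these levels was also below that in droplets outside cells. It was called higher in macrophages than in non-cycling neutrophils in RBI-derived cut (log2 ratio 2.46, 1.71 to 3.21) and CHT-derived normal (2.63, 2.07 to 3.23), where 18.6% and 32.6% of genes were called higher. The CHT-derived normal neutrophils held only 30 id1 UMIs. Thus id1 had enough there through the macrophages, which fixes the direction of its call. It was not called in CHT-derived cut (-0.33, -0.62 to -0.03), where 19.7% of genes were. In RBI-derived normal, where 20.1% were, it had too few UMIs. Cycling neutrophils had id1 at 5.56, 7.69, 19.7 and 47.2 CPM, and it was called higher than in non-cycling cells in CHT-derived normal (1.41, 0.69 to 2.15) but not in CHT-derived cut (-0.02, -0.48 to 0.41). The call rests on 39 UMIs in cycling and 30 UMIs in non-cycling cells. Of all genes 5.10% were called higher there, and 3.62% in CHT-derived cut.

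The gene id2b had 1, 1, 2 and 10 UMIs in non-cycling neutrophils. Its macrophage levels were 3.20, 3.06, 8.27 and 7.47 CPM, and it was called higher in macrophages in CHT-derived cut (log2 ratio 1.57, 0.54 to 2.73), as were 19.7% of genes. With 10 UMIs in these neutrophils it had enough there through the macrophages, which fixes the direction of the call. In the other 3 libraries it stayed under 50 UMIs over both sums.

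**Figure D1:**
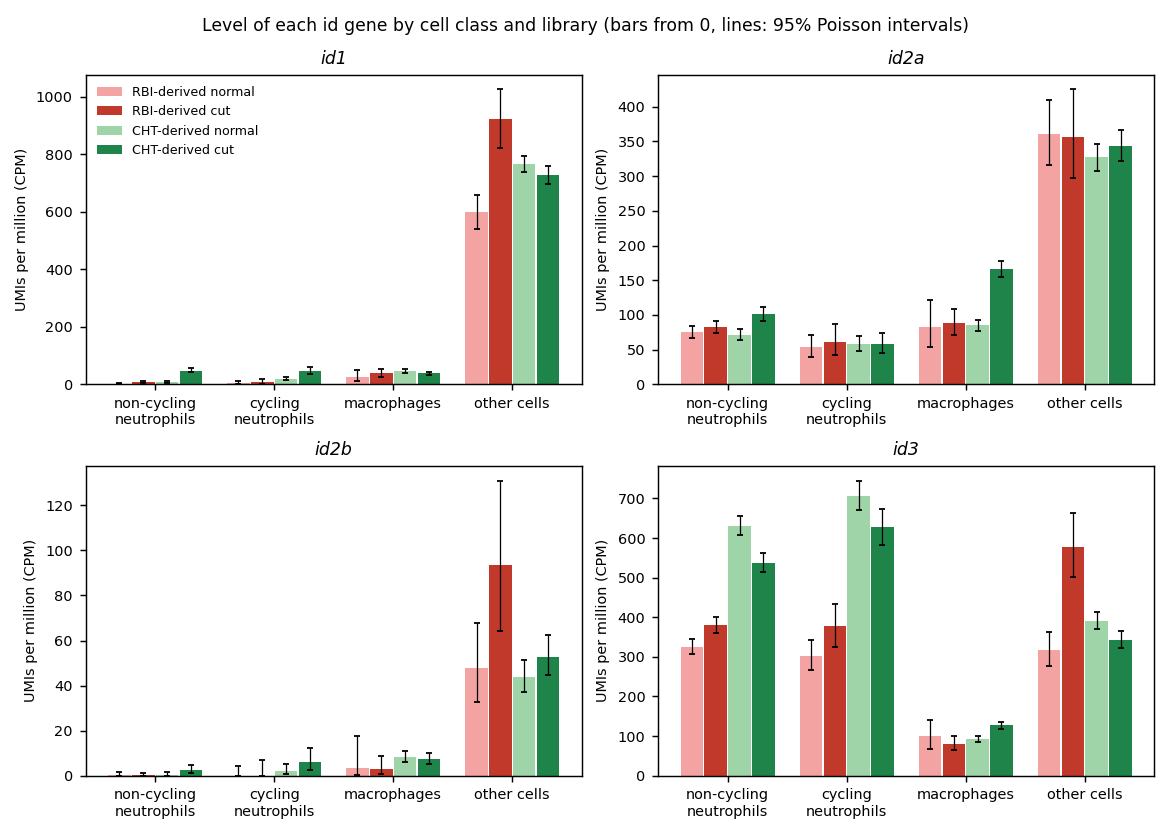
Level of id1, id2a, id2b and id3 (vertical axis, UMIs per 1000000, each panel with its own scale from 0) in 4 cell classes; each bar is 1 library and the line its 95% Poisson interval. Neutrophils carried id3 at 303 to 707 CPM against 80.5 to 127 CPM in macrophages, and id1 was at 598 to 921 CPM in the other cells.

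The other cells, those of the sort with little lyz and few macrophage UMIs, had id1 at 598 CPM (541 to 660), 921 (823 to 1026), 765 (737 to 795) and 728 (696 to 761). Against non-cycling neutrophils this was a log2 ratio of 8.31 (7.26 to 9.64), 7.03 (6.47 to 7.64), 6.69 (6.17 to 7.26) and 3.92 (3.71 to 4.15). The level of id2a in other cells was 361, 357, 327 and 343 CPM, with overlapping intervals, and its log2 ratio over neutrophils was 2.27, 2.11, 2.20 and 1.76. Both genes were called higher in all 4 libraries, where 34.1%, 19.6%, 52.9% and 41.2% of genes were, and the median over all genes tested was 0.26, -0.00, 1.14 and 0.66. In the first 3 libraries id1 had under 50 UMIs in neutrophils. It had enough there through the other cells, which fixes the direction of its call. TMM scaling moved the ratios of other cells over neutrophils by -1.02 to -1.31, and took the median of id2a from 2.16 to 1.00 and that of id3 from -0.34 to -1.51. So scaled, id2a was at 0.95, 1.04, 1.04 and 0.74 and kept its call in 2 of the 4 libraries, while id3 was at -1.35, -0.47, -1.85 and -1.67 and passed 2-fold in 3.

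The gene id2b was at 47.9, 93.5, 43.8 and 52.9 CPM in other cells, with log2 ratios over neutrophils of 6.47 and 4.39 in the CHT-derived libraries. Its UMIs in these neutrophils were under 50, so that it had enough through the other cells. This fixes the direction, and no call is read from these ratios. The level of id3 in other cells was 317 (276 to 363), 578 (501 to 663), 391 (371 to 412) and 343 CPM (322 to 366). It was not called against neutrophils in any library, with log2 ratios of -0.04, 0.60, -0.69 and -0.65. The family member id4, which was not among the genes chosen, was at 123, 70.8, 83.9 and 71.7 CPM in other cells.

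To see which cells these were, the 1732 other cells were clustered with the id genes left out, which gave 22 clusters, named where markers allowed. Endothelium-like cells (29 cells, 7 of 8 endothelial markers) had id1 at 8506 CPM (7852 to 9200) and id3 at 3394 CPM (2986 to 3843), the highest pooled level of both genes among the 22 clusters. The 17 cells of CHT-derived normal had id1 at 7691 CPM and the 10 of CHT-derived cut at 11137 CPM, while each RBI-derived library gave 1 cell. These cells also had her6, a repressor of the Hes family, at 3980 CPM and the BMP ligand bmp6 at 177 CPM. The SMAD genes that answer BMP were detected too, with smad1 and smad9 both at 109 CPM and smad5 at 95.4 CPM. In these 29 cells 7 UMIs make 95.4 CPM, so that the SMAD and bmp6 levels rest on few UMIs.

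Mesenchyme and cartilage-like cells (147 cells, 7 of 9 markers) had id1 at 3920 CPM, id3 at 1844 CPM and id2a at 904 CPM. By library id1 was at 2152, 3751, 3419 and 6044 CPM, and id3 at 1405, 2959, 1612 and 2461 CPM. Each gene thus stood at over 1000 CPM in each library. The mesenchymal bHLH genes twist1a (380 CPM) and hand2 (318 CPM), and grem2b (196 CPM), a secreted BMP inhibitor, were found in the same cluster, as was the E protein gene tcf12 (284 CPM). An unnamed cluster of 13 cells led by col9a1b, matn3a, epyc, tbxta and col2a1a had id1 at 3850 CPM, id3 at 2763 CPM and id2a at 1252 CPM.

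In neural cells the genes separated. A neural progenitor-like cluster of 163 cells had id1 at 2585 CPM (2450 to 2724), id2a at 552 CPM and id3 at 401 CPM, and by library id1 was at 1735, 2330, 2460 and 3904 CPM. Its her4.2, a Notch target of neural progenitors, was at 1944 CPM. A further neural progenitor-like cluster of 125 cells, which had the proneural bHLH genes neurod4 at 882 CPM and ascl1a at 257 CPM, had id1 at 619 CPM.

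In the largest neuron-like cluster (236 cells) id1 was at 26.4 CPM (14.1 to 45.2) and id3 at 48.8 CPM (31.2 to 72.6), while id2a was at 719 CPM (646 to 798) and id4 at 502 CPM (441 to 569). By library id2a was at 678, 388, 792 and 696 CPM in it, and the 87 cells of CHT-derived normal held no id1 UMI. A neuron-like cluster of 59 cells led by tfap2 genes and pax10 had id2a at 1341 CPM and no id1 UMI. Of its cells 42 were from CHT-derived cut, where id2a was at 1890 CPM, against 301 and 396 CPM in the 10 and 6 cells of the normal libraries. A neuron-like cluster of 98 cells led by phox2bb had id1 at 468 CPM.

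Epidermis-like cells (69 cells) had id1 at 768 and id3 at 481 CPM. Neural crest and pigment-like cells (14 cells) had id2b at 502 CPM, its highest pooled level among the 22 clusters, and id2a at 1228 CPM. With 10 principal components in place of 30 no cluster took this name. Blood progenitor-like cells (85 cells) had id2a at 133, id3 at 89.7 and id1 at 29.4 CPM, and erythroid-like cells had id3 at 20.0 and id1 at 5.01 CPM. The former name rests on 3 of 8 markers, and with 10 components there was no such cluster but 84 erythroid-like cells, with id2a at 77.7 and id3 at 35.5 CPM. An unnamed cluster of 174 cells led by ccr9a, cd7al and runx3 had id3 at 240 CPM. A cluster of 59 neutrophil-like cells, which had fallen under the lyz limit, had id3 at 641 CPM (496 to 816), id2a at 194 CPM and no id1 UMI. The make-up of this group varied with the clustering. At resolution 1.5 it had 115 cells with id1 at 92.4 and id3 at 420 CPM, and with 10 components 53 cells with id1 at 22.8 and id3 at 548 CPM.

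**Figure D2:**
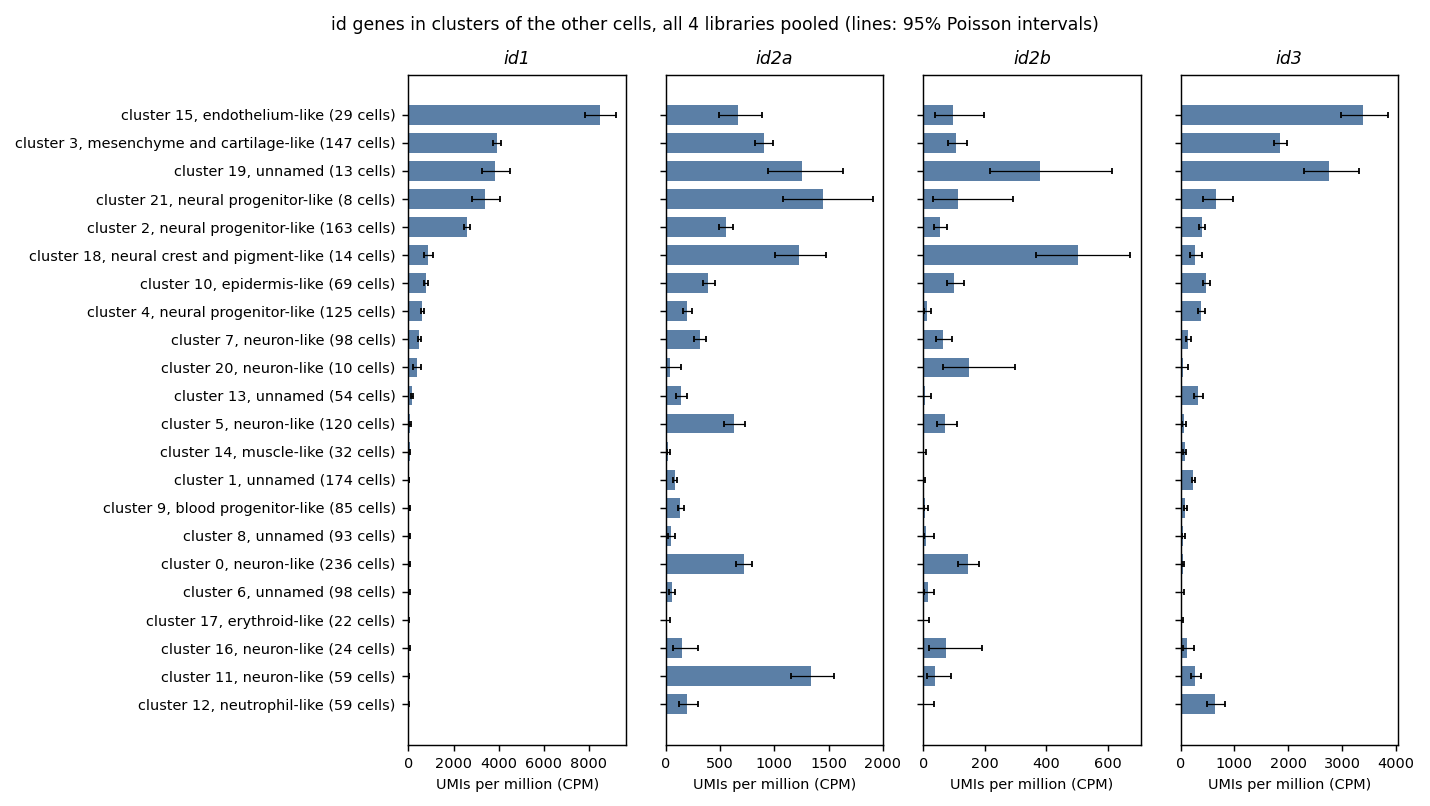
Level of id1, id2a, id2b and id3 (horizontal axes, UMIs per 1000000, each panel with its own scale from 0) in the 22 clusters of other cells, the 4 libraries pooled; lines are 95% Poisson intervals. Endothelium-like cells head id1 (8506 CPM) and id3 (3394 CPM), while neuron-like cluster 0 has id2a (719 CPM) with little id1 (26.4 CPM).

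Single other cells often held more than 1 of the genes. After thinning to 1000 UMIs, 16, 20, 72 and 77 cells had both id1 and id3, against 7.99, 7.99, 32.0 and 27.0 cells if the genes were spread over the cells independently. The observed number was thus 2.00, 2.50, 2.25 and 2.85 times the latter. For id1 with id2a this ratio was 1.59, 1.59, 1.57 and 1.74, and for id2a with id3 it ran from 1.34 to 1.64. These ratios pool cell types with different levels. In non-cycling neutrophils the ratio of id2a with id3 was 1.04, 0.957, 1.09 and 1.06, from 16, 18, 17 and 42 cells holding both. There id1 with id2a gave 3.83 in CHT-derived normal, from 2 cells against 0.522, and 2.02 in CHT-derived cut, from 18 cells against 8.90.

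Within the neutrophils, id2a was lower where lyz took a larger share of the cell's UMIs. Leaving lyz itself out of the total, id2a stood at 150, 94.8, 80.9 and 44.6 CPM in RBI-derived normal, in cells with lyz at 1 to 5%, 5 to 10%, 10 to 20% and 20% or more. In RBI-derived cut it stood at 102, 90.9, 77.0 and 45.3 CPM over the same bins, the last from 17 cells and 1 UMI. The bins of CHT-derived normal had 201, 114, 79.2 and 48.0 CPM and those of CHT-derived cut 209, 91.1, 93.0 and 65.0 CPM. The bin of lowest lyz share was above that of highest share in each library, while in RBI-derived cut their intervals overlapped. Other cells had more id2a than neutrophils in each library. In CHT-derived cut the bin of lowest share also had more id1 than the next bins, as given below. The part of RNA from other cells in this gradient was not tested beyond leaving out the cells under 5% lyz.

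Split at a lyz share of 10%, the log2 ratio of id2a below over above was 0.49 (0.14 to 0.84), 0.31 (-0.06 to 0.70), 0.74 (0.35 to 1.12) and 0.66 (0.37 to 0.95). Without the cells under 5% lyz the median of the 4 ratios was 0.29 in place of 0.58. For id3 the same split gave 0.05 (-0.12 to 0.22), -0.54 (-0.69 to -0.38), 0.07 (-0.08 to 0.21) and -0.18 (-0.31 to -0.05). The id3 ratio lay below 0 in both cut libraries and spanned 0 in both normal ones.

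Neutrophils with a UMI of csf3b, the gene of a granulocyte colony-stimulating factor, had id2a at 125, 109, 184 and 139 CPM, against 67.1, 80.0, 65.1 and 96.7 CPM in those without. The level was higher with csf3b in all 4 libraries, with overlapping intervals in both cut libraries. In the normal libraries id3 was lower in the csf3b-positive cells, at 187 against 348 CPM in RBI-derived and 345 against 647 CPM in CHT-derived cells. In the cut libraries the id3 intervals of csf3b-positive and csf3b-negative cells overlapped.

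**Figure D3:**
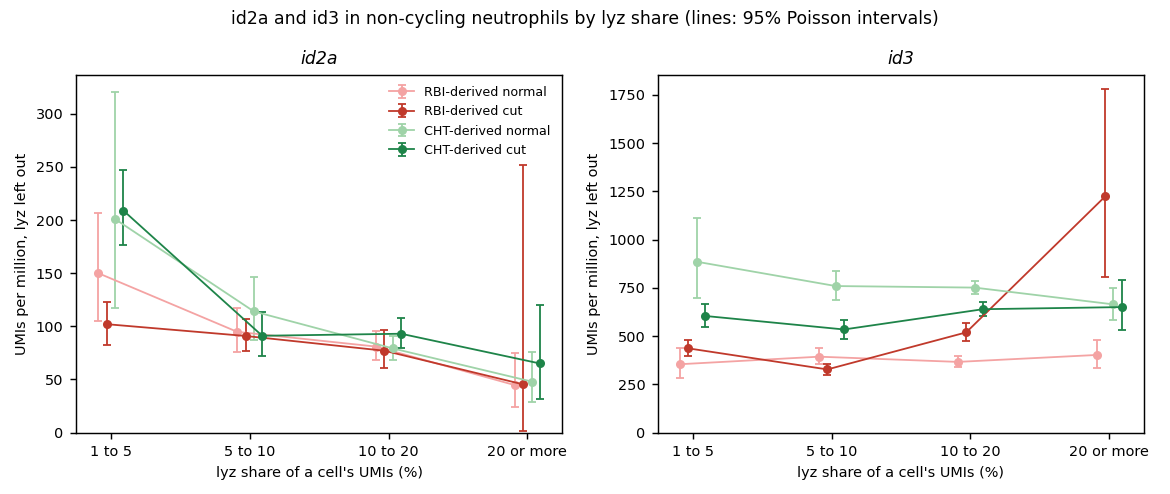
Level of id2a (left) and id3 (right) in non-cycling neutrophils (vertical axis, UMIs per 1000000 with lyz left out, from 0) by the lyz share of the cell's UMIs (horizontal axis, %); each colour is 1 library and lines are 95% Poisson intervals. The level of id2a was 102 to 209 CPM at the lowest lyz share and 44.6 to 65.0 CPM at the highest, and the id3 point at 1223 CPM rests on 17 cells.

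The id3 UMIs were uneven among neutrophils. The 10% of non-cycling neutrophils with most id3 held 58.0%, 51.9%, 47.2% and 51.7% of them, and single cells reached 28, 17, 41 and 34 UMIs. The same share of id2a was 65.6%, 60.6%, 55.2% and 55.6%, so that this measure does not set id3 apart. Thinned to 1000 UMIs, the variance over the mean of id3 was 1.54, 2.12, 1.84 and 2.59, where a Poisson spread gives 1. For id2a it was 1.06, 1.24, 1.07 and 1.19. For the same relative spread this measure is larger where the mean is larger. The thinned means were 0.338, 0.398, 0.595 and 0.569 UMIs for id3 and 0.0826, 0.0807, 0.0945 and 0.137 UMIs for id2a. The measure therefore does not set the genes apart either.

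The next comparison asked how the genes differed between RBI-derived and CHT-derived neutrophils of normal embryos. In non-cycling neutrophils the RBI-derived over CHT-derived log2 ratio of id3 was -0.95 (-1.05 to -0.85), short of the 2-fold call, which 3.72% of 5614 genes passed in either direction. That of id2a was 0.07 (-0.17 to 0.32), so that its interval spans 0. In cycling neutrophils id3 was called lower, with 273 UMIs in the RBI-derived and 1398 UMIs in the CHT-derived library and a log2 ratio of -1.22 (-1.41 to -1.03). There 4.35% of genes were called lower. The RBI-derived library had fewer UMIs per cell, and with each cell thinned to 1000 UMIs the non-cycling id3 ratio was -0.82. It passed 2-fold with free RNA subtracted (-1.04) and in UMIs per cell (-1.75).

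After the cut, the id3 ratio of RBI-derived over CHT-derived non-cycling neutrophils was -0.50 (-0.60 to -0.41) and that of id2a -0.30 (-0.51 to -0.08). The ratio of id1 was -2.77 (-3.39 to -2.19), called lower, as were 6.90% of 6043 genes. The RBI-derived library held 28 id1 UMIs, so that id1 had enough UMIs through the CHT-derived one, which fixes the direction of its call. With free RNA subtracted the id2a ratio turned to 0.12.

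Cut and normal embryos were then compared. The log2 ratio of id3, cut over normal, was 0.22 (0.11 to 0.33) in RBI-derived non-cycling neutrophils, beside a median over all genes tested of 0.15. For CHT-derived ones it was -0.23 (-0.31 to -0.15), beside a median of 0.18. With TMM scaling these id3 ratios were 0.05 and -0.50. The 7 erythroid markers went from 9.13 to 872 CPM in the RBI-derived neutrophils and from 38.8 to 317 CPM in the CHT-derived ones, all detected except alas2 in CHT-derived cut. The share of free RNA read from erythroid genes went from 6.99% to 22.2% and from 4.66% to 16.7%, and the part of these in the id3 ratios was not tested beyond the RBI-derived value with free RNA subtracted, 0.23. The id2a ratios were 0.14 (-0.10 to 0.37) and 0.51 (0.29 to 0.73). In the RBI-derived cells id2a and id3 were not called, where 4.67% of genes passed 2-fold in either direction, and id1 (log2 ratio 1.91, 0.68 to 3.35, from 7 and 28 UMIs) and id2b had too few UMIs for a call. The gene id1 was called higher in the CHT-derived cells (2.69, 2.13 to 3.30), as were 8.60% of 6015 genes, and whether its ratio differed from the RBI-derived one was not tested. The CHT-derived normal library alone held under 50 id1 UMIs. Thus id1 had enough through the cut library, which fixes the direction of its call. With UMIs counted per cell and no scaling to the total, the RBI-derived ratios went to -0.13 for id3 and -0.22 for id2a. The CHT-derived ones went to -1.23 and -0.49, and id2a was at -0.07 there with free RNA subtracted.

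In CHT-derived macrophages id2a was at 85.0 CPM in normal and 166 CPM in cut embryos, a log2 ratio of 0.96 (0.80 to 1.13), beside a median over all genes of -0.10. It fell short of the call, which 9.05% of 7666 genes passed in either direction, and passed it with TMM scaling (1.03). In UMIs per cell it was 0.17, with a median depth of 9264 UMIs in normal and 5349 UMIs in cut macrophages. Several marker lists of other cells also rose in these macrophages, the 8 muscle markers from 48.9 to 640 CPM, the 8 neural progenitor markers from 9.62 to 67.3 CPM, the 8 neuron markers from 7.12 to 47.2 CPM and the 8 neutrophil markers from 2816 to 4358 CPM. All were detected in cut embryos, while myod1, her4.2 and sox19a were at 0 in normal ones. The endothelium markers changed little, from 29.6 to 34.6 CPM, and the mesenchyme and cartilage markers fell from 26.2 to 8.75 CPM. The part of RNA from other cells in the result was not tested beyond the id2a ratio with free RNA subtracted, which was 0.79. The id3 ratio of the same cells was 0.46 (0.29 to 0.63), or 0.13 with free RNA subtracted and -0.33 in UMIs per cell. The share of free RNA was read in neutrophils, at 4.66% in normal and 16.7% in cut embryos. In the macrophages themselves the erythroid markers stood at 58.5 CPM in normal and 104 CPM in cut embryos. The droplets had them at 808 and 1871 CPM, so that the neutrophil share may not hold for macrophages. The id1 ratio was -0.26 (-0.53 to 0.02), and 0.22 without likely doublets.

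After the cut, RBI-derived over CHT-derived macrophages had log2 ratios of -0.90 (-1.24 to -0.58) for id2a, -0.65 (-1.01 to -0.32) for id3 and 0.02 (-0.52 to 0.52) for id1. None was called, where 5.80% of genes passed 2-fold in either direction. In UMIs per cell id2a and id3 passed it, at -1.26 and -1.01, and with each cell thinned to 1000 UMIs id3 was at -0.21. The RBI-derived macrophages had 17.3 CPM of the muscle, 4.07 CPM of the neural progenitor and 11.2 CPM of the neuron markers, with 3, 2 and 5 of 8 detected, against the higher sums of CHT-derived cut given above. The endothelium markers lay the other way, at 43.8 CPM in RBI-derived and 34.6 CPM in CHT-derived cut macrophages. The part of these lists was not tested. Comparisons that use the same library share it and are not independent.

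**Figure D4:**
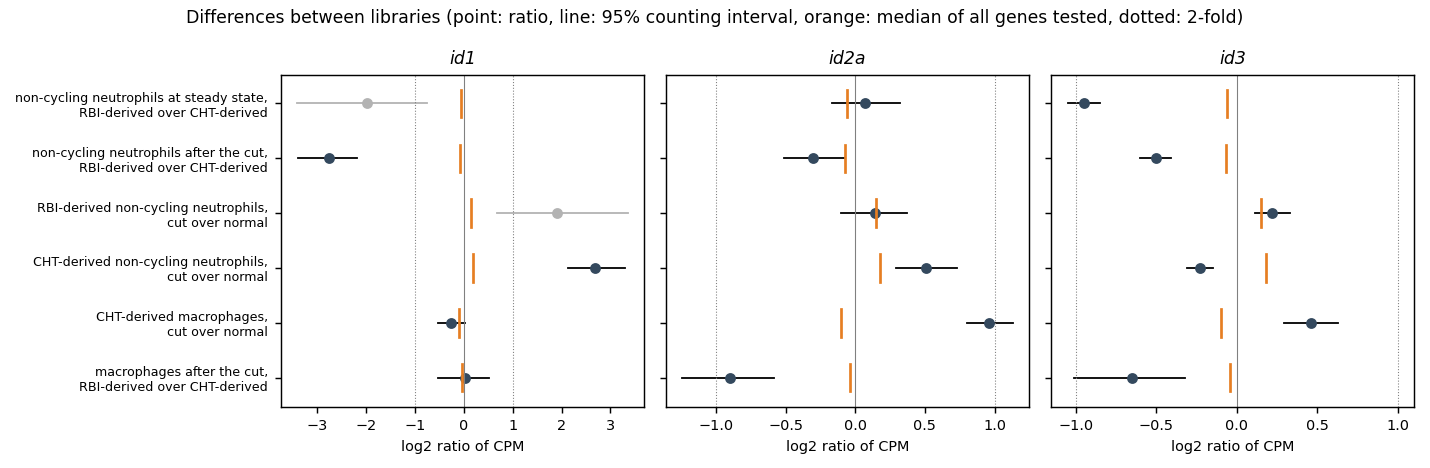
Log2 ratios of CPM between libraries (horizontal axis) for id1, id2a and id3 in 6 comparisons; points are ratios, lines 95% counting intervals, orange marks the median of all genes tested, dotted lines mark 2-fold, and gray points have under 50 UMIs. The ratio of id3 in normal embryos lies at -0.95, id2a in CHT-derived macrophages at 0.96, and id1 in CHT-derived neutrophils at 2.69.

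The id1 UMIs of CHT-derived cut neutrophils sat in particular cells. Of the 1038 non-cycling neutrophils, 118 had an id1 UMI, with a median of 1480.5 UMIs and a lyz share of 4.27%, against 3966 UMIs and 8.62% in the 920 without. At least 3 macrophage UMIs were present in 51 of the former and 139 of the latter. The summed level of 8 muscle markers was 845 against 310 CPM, that of 8 neuron markers 283 against 73.9 CPM, and that of 8 neural progenitor markers 239 against 53.3 CPM. Cells with id1 were thus shallower, with less lyz and more of each of these lists. The endothelium (87.9 against 114 CPM), blood progenitor (876 against 975 CPM) and neural crest and pigment markers (6.28 against 6.86 CPM) were not higher in them. By lyz share, id1 was at 153 CPM (125 to 185) in the 387 cells at 1 to 5% and at 25.1 and 34.0 CPM in the next bins. In CHT-derived normal 18 of the 30 id1 UMIs came from the 24 cells at 1 to 5%.

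Over all non-cycling neutrophils, the 8 macrophage markers summed to 6.18, 35.8, 55.6 and 351 CPM, with c1qb, irf8 and csf1ra at 0 in RBI-derived normal, c1qb and irf8 at 0 in RBI-derived cut and all 8 detected in the CHT-derived libraries. The 8 neuron markers summed to 9.40, 11.8, 12.4 and 90.6 CPM, with snap25a at 0 in RBI-derived normal and all 8 detected elsewhere. The neural progenitor markers summed to 4.57 and 8.32 CPM in RBI-derived and to 68.2 CPM in CHT-derived cut neutrophils, where sox2 was at 0 and 7 of 8 were detected. Like id1, each of these lists was highest in CHT-derived cut. Other lists were not. The endothelium markers were at 104, 130, 107 and 112 CPM, and the erythroid markers at 9.13, 872, 38.8 and 317 CPM. The mesenchyme and cartilage markers, at 5.10, 17.4, 6.43 and 17.9 CPM, were near alike in both cut libraries. Leaving out the neutrophils with macrophage UMIs, the CHT-derived id1 ratio, cut over normal, was 2.17, and in neutrophils with lyz at 5% or more it was 3.11. Read from erythroid genes, the share of free RNA in CHT-derived neutrophils was 4.66% before the cut and 16.7% after it. This share depends on the list. In CHT-derived cut neutrophils the erythroid markers were at 317 CPM against 1871 CPM in droplets, and the neuron markers at 90.6 against 507 CPM. The muscle markers were at 353 against 4087 CPM and the neural progenitor markers at 68.2 against 955 CPM, a smaller part of the droplet level. The id1 level of the droplets, given above, was also higher after the cut in these libraries. No id1 ratio with free RNA subtracted is given here. The part of RNA from other cells in this result was otherwise not tested.

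Partners and regulators of the id genes were described by lists. Many of their genes had few UMIs in neutrophils, so that those with at least 50 UMIs over both sums had them through the other cells, which fixes the direction of their call. Their levels are therefore given with no count of calls. Of 4 E protein genes, the direct partners of Id proteins, 3 were matched. The gene tcf3b was at 71.8, 36.8, 60.3 and 59.5 CPM in other cells and at 1.88, 2.02, 1.24 and 3.53 CPM in non-cycling neutrophils. For tcf12 the levels were 88.3, 45.3, 86.8 and 51.1 CPM in the former and 0.537, 2.27, 2.23 and 2.52 CPM in the latter.

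Hes and Hey genes are repressors that often act downstream of Notch. The level of her6 was 296, 176, 323 and 220 CPM in other cells and 2.42, 5.80, 6.18 and 24.2 CPM in neutrophils. Among neural bHLH genes, neurod4 was at 166, 170, 115 and 79.4 CPM in other cells and at 0.269, 1.51, 0.742 and 4.80 CPM in neutrophils. The myeloid transcription factor gene spi1b, which is needed for myeloid cells, lay the other way, at 22.4, 193, 26.5 and 30.5 CPM in other cells and 608, 592, 806 and 606 CPM in neutrophils.

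Of 9 BMP receptor genes, 8 were matched. The type II receptor gene bmpr2b was at 46.4, 39.7, 40.1 and 33.4 CPM in other cells and at 2.42, 1.26, 1.48 and 1.77 CPM, from 5 to 9 UMIs, in neutrophils. The BMP SMAD gene smad5 was at 25.4, 19.8, 20.2 and 23.5 CPM in other cells and at 1.07, 0.756, 0.742 and 2.52 CPM in neutrophils. In macrophages smad1 was at 41.6, 71.3, 47.1 and 56.0 CPM, against 0.269, 0.504, 0.742 and 7.32 CPM in non-cycling neutrophils, the first 3 of these from 1 to 3 UMIs. The macrophage level of smad1 was the higher one in each library.

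Between cut and normal neutrophils, 3 BMP targets other than the id genes had enough UMIs in the RBI-derived comparison and 2 in the CHT-derived one, and hamp, the gene of the iron hormone hepcidin, was called higher in both. Of all genes 3.47% were called higher in the former and 8.60% in the latter. It was at 20.5 CPM in CHT-derived normal and 280 CPM in CHT-derived cut (log2 ratio 3.77, 3.45 to 4.11). The RBI-derived libraries had it at 0.537 and 21.2 CPM, from 2 and 84 UMIs, so that it had enough UMIs there through the cut library alone. Macrophages had hamp at 1326, 2061, 1325 and 2427 CPM, and its neutrophil level moved with the macrophage markers in neutrophils given above, whose part in it was not tested. Of 3 Hes and Hey genes with enough UMIs in CHT-derived neutrophils, her6 was called higher in cut embryos (log2 ratio 1.97, 1.32 to 2.67). The normal library held under 50 her6 UMIs, so that her6 had enough through the cut one, which fixes the direction of its call. Its level was higher in other cells, and the neuron markers given above also rose in these neutrophils. The part of RNA from other cells in the her6 ratio was not tested. Myeloid transcription factors were not called between cut and normal neutrophils, with 6 and 7 tested. Of all genes 4.67% and 10.1% passed 2-fold in either direction, so that no call among so few genes is near that share.

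Across the 16 sums of 4 classes in 4 libraries, the 3 genes most like each member were found by Pearson correlation of log2(CPM + 5), among 8378 genes with at least 200 UMIs. The sums of a library share its depth and free RNA, and the sums of a class its cell types. For id1 these genes were hnrnpl, ing4 and ptges3a, each at 0.98, for id2a cdh2 (0.98), llgl1 (0.97) and junbb (0.97), and for id2b phgdh, actr6 and mtbl, each at 0.98. For id3 they were calcrla (0.95), anp32a (0.94) and hbegfa (0.93). Among the members, id1 correlated with id2a at 0.92 and with id2b at 0.98, while id3 correlated with the other 3 at 0.03 to 0.09.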

How the data were processed

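Per the labels and the study's methods, Dendra2+ cells of whole embryos were sorted and captured with 10x Genomics 3' chemistry. The authors deposited 1 matrix of UMI counts per condition, unfiltered for cells, as raw counts per gene and barcode. The file headers name Cell Ranger 7.1.0, and the submitters' processing notes name GRCz11 and Seurat. Red (RBI-derived) and green (CHT-derived) were read from the letters of the sample titles. Library totals were 7409098 to 17303744 UMIs, which limits precision for genes with few UMIs.

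The 4 members and all lists were chosen with earlier results of these data known. Counts were summed per class and library, with no count model, since each condition has 1 library. Named genes were the members, the genes of the lists that were called or serve as examples, and the 3 genes most like each member. Other cells were clustered (scanpy 1.11.5, Leiden resolution 0.8, 30 components, 15 neighbors, 2000 variable genes). Doublets were kept, and 127 likely doublets (1.67% of cells), scored against simulated doublets, were left out as an alternative. Free RNA was subtracted as an alternative, with its share read from 9 erythroid genes in neutrophils. Other marker lists would give other shares, as given above, so that the subtracted ratios are rough. TMM factors came from edgeR 4.0.16 in R 4.3.3, and all else was computed in Python 3.11.15. The code for ratios and calls was checked on simulated counts.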

Additional observations from a re-analysis of the deposited data

Results flagged for a closer look

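Directions of cut over normal differed between RBI-derived and CHT-derived cells for the genes below, and with 1 library per condition the difference was not tested. In non-cycling neutrophils the id3 log2 ratio was 0.22 in RBI-derived cells, 0.45 apart from the -0.23 of CHT-derived cells (counting interval 0.31 to 0.59). In cycling neutrophils id3 was at 0.31 and -0.17, 0.48 apart (0.19 to 0.77), the same directions as in non-cycling cells of the same libraries. For id2a the cycling ratios were 0.21 and -0.01, 0.22 apart (-0.56 to 1.00), an interval that spans 0. The RBI-derived id3 ratio of non-cycling cells was 0.05 with TMM scaling, where the CHT-derived one was -0.50, and the latter was -0.06 with each cell thinned to 1000 UMIs. In UMIs per cell, which are not scaled to depth, the RBI-derived ratio was -0.13, below 0 as in CHT-derived cells. The median depth was also lower in cut embryos, 3460 against 4322 UMIs in RBI-derived and 3697.5 against 8100 UMIs in CHT-derived cells.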

How the results depend on the processing

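Over 42 results and 16 alternatives, 378 of 455 values stayed within the main value's counting interval (for a median within 1 SD over the 4 libraries, for a count within 1.5 times), 77 moved and 0 changed the sign of a called value, while 23 of 348 log2 ratios had the other sign. Log2 ratios below are cut over normal, RBI-derived over CHT-derived (after the cut or at steady state) or class over non-cycling neutrophils. With at least 500 UMIs per cell id1 in CHT-derived neutrophils was 3.31, with lyz at 2% or more 3.32, against 2.69. With at most 5% mitochondrial UMIs the co-detection of id1 and id3 was 2.82, against 2.38. With cycling set at 1 UMI, 315 genes passed 2-fold after the cut (511 before), where id3 was -0.32, and id3 in CHT-derived neutrophils was -0.42. TMM scaling gave median id3 -2.61 in macrophages and -0.09 in cycling neutrophils, median id2a 1.00 in other cells (past 2-fold in 2 of 4 libraries), and id3 -0.31 after the cut, 0.05 in RBI-derived and -0.50 in CHT-derived neutrophils. In UMIs per cell, median id2a was 1.72 in other cells and 0.41 in cycling neutrophils, and median id3 0.90 in the latter. Neutrophil id3 was then -1.75 at steady state, -0.65 after the cut, -0.13 for RBI-derived cells and -1.23 for CHT-derived ones, the latter with id1 1.69. CHT-derived macrophages had id2a 0.17 and id3 -0.33, and macrophages after the cut -1.26 and -1.01. Thinned to 1000 UMIs, cycling id2a was 0.01 and neutrophil id3 -0.82 at steady state. After the cut id1 was -3.80, CHT-derived neutrophils had id1 2.09 and id3 -0.06, CHT-derived macrophages id2a 0.74 and id3 0.25, macrophages after the cut id3 -0.21, and id2a by lyz share 0.81. With free RNA subtracted, its share read in neutrophils, other cells had id2a 2.44, neutrophils after the cut id3 -0.66, and CHT-derived macrophages id2a 0.79 and id3 0.13. Genes past 2-fold, in the order neutrophils at steady state, after the cut, CHT-derived, CHT-derived macrophages and macrophages after the cut, were 209, 511, 608, 694 and 361. Thinned they were 61, 298, 403, 267 and 123. In UMIs per cell 2023, 2267, 3185 and 745 genes passed for all but the second. With genes of at least 10 UMIs they were 1111, 2046, 2202, 2092 and 1899, and 1231 in RBI-derived neutrophils (262 before). With lyz at 5% or more, chosen after seeing the data, 259 genes passed after the cut and 399 in CHT-derived neutrophils, and id2a by lyz share was 0.29. With 10 components, id1 was at 1879 CPM in neural progenitor-like cells (1740 before) and 38.9 CPM in neuron-like cells (165 before). Beyond what each alternative changes by construction, the cause was not tested. No paired analysis was possible because each condition is 1 library and no replicate number is shared between groups. Members with few UMIs, id1 and id2b in neutrophils, are limited by depth.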

Other observations

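In the RBI-derived other cells the log2 ratio of cut over normal was 0.87 (0.58 to 1.15) for id3, 0.62 (0.41 to 0.84) for id1 and -0.01 (-0.34 to 0.30) for id2a, over 161 and 195 cells. In the CHT-derived other cells these ratios were -0.19 (-0.31 to -0.07), -0.07 (-0.16 to 0.01) and 0.07 (-0.05 to 0.20). The mix of cells differed beside this, with the 8 muscle markers at 36.8 CPM in cut and 14718 CPM in normal RBI-derived other cells, and its part was not tested.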
